A study of Arabidopsis thaliana with 11 samples.

Results

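WRKY transcription factors are plant proteins that bind DNA through a zinc-finger domain, and 51 loci of Arabidopsis thaliana, listed by locus as members of this family, were followed among the 33602 genes of the deposited table. The members are the loci listed under this family name, and all 51 were found in the table. Counts for a group of WRKY genes cover these listed loci only, which may not be the whole group. RNA came from whole seedlings, 4 days old and grown in light, of Columbia wild type (WT) and of a line in the study carrying ESTpro:SPCH1-4A-YFP (iSPCH), an estradiol-inducible construct for a YFP-tagged form of SPEECHLESS (SPCH), the bHLH factor that starts the stomatal lineage. Untreated seedlings (0 h) were compared with seedlings incubated in 10 µM beta-estradiol for 6 h or 8 h, in 11 libraries of 6 groups: 1 library of WT at 0 h and 2 of every other group. WT lacks the construct and received the same estradiol, so an effect of the construct itself and one of SPCH cannot be told apart. Because 0 h seedlings were not treated, the change from 0 h holds estradiol, incubation and elapsed time together.

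The family takes its name from a conserved run of amino acids in the DNA-binding domain, which recognises the W box, a short promoter element with the core TTGAC. Group I proteins carry a pair of such domains, group II (split into IIa to IIe) carries 1, and group III has a different zinc finger. In seedlings and leaves many WRKY genes respond within minutes to wounding or to microbial elicitors such as flagellin, act below MAP kinase cascades, pair with proteins of the VQ family and control each other through W boxes in their own promoters, while others act in leaf senescence, phosphate supply or development.

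The file holds group means of DESeq-normalised read counts, from which the reads of each library were recovered (11127149 to 21666986 reads a library in the genes used). Values are given as normalised counts in each library unless said otherwise, and differences are on the scale of log2(normalised count + 1), with the standard error (SE) and the p adjusted by the Benjamini-Hochberg method over all 19668 genes tested with limma. A gene was called at an adjusted p under 0.05. SPCH was at 99.5 and 141 in WT and 41639 and 39757 in iSPCH at 8 h, against 178 in WT and 169.8 and 232 in iSPCH at 0 h. All 12 markers of the tissues of a seedling (leaf, epidermis, guard cell, root, root hair, phloem) were detected in every group. Whether libraries of a group came from separate cultures is not labelled, and the p-values cover no more than the spread among the libraries, which may be technical. In whole seedlings, fewer cells of a type and less RNA per cell cannot be told apart.

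Of the 51 members, 42 had enough reads to be tested. The other 9 (WRKY8, WRKY12, WRKY13, WRKY30, WRKY38, WRKY46, WRKY54, WRKY55 and WRKY71) had at most 18 reads in any library. By structure, 10 of 10 members of group I, 3 of 3 of IIa, 5 of 5 of IIb, 8 of 12 of IIc, 6 of 6 of IId, 7 of 7 of IIe and 3 of 8 of III were tested. WRKY50 of IIc reached the CPM needed for testing in iSPCH libraries alone. It thus entered the tests and the medians of the 42 through the line where it was higher at 8 h.

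At 8 h of induction 13 of the 42 tested members were higher in iSPCH than in WT and 1 was lower, whereas at 6 h 1 was higher and none was lower. Over all genes tested at 8 h, 4.75% were called higher and 5.98% lower; at 6 h these shares were 1.16% and 3.57%. The median difference of the 42 members was 0.27 at 8 h and -0.01 at 6 h, beside -0.03 and 0.00 for all genes. The 13 were, from the largest difference down, WRKY45, WRKY53, WRKY31, WRKY75, WRKY22, WRKY6, WRKY9, WRKY29, WRKY25, WRKY11, WRKY33, WRKY26 and WRKY7, with differences from 1.66 to 0.29. WRKY69 was the member that was lower. The deeper of the 2 iSPCH libraries at 8 h lay above the other for 11 of the 13 higher members. This order was not counted over all genes, so it cannot be read as particular to these members. Fewer members were called without that library or without either WT library at 8 h. Such a fit has fewer libraries for every gene, and the share of all genes called in it is not given here. The part of the deeper iSPCH library in the count was not tested. Leaving out the deeper iSPCH library ended the calls of WRKY11, WRKY29 and WRKY33, leaving out the deeper WT library that of WRKY29, and leaving out the shallower WT library those of WRKY9, WRKY25 and WRKY33. The calls of WRKY7, WRKY26, WRKY69 and WRKY75 ended whichever of the 4 libraries at 8 h was left out. In all these cases the sign stayed, with adjusted p between 0.0542 and 0.293.

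**Figure D1:**
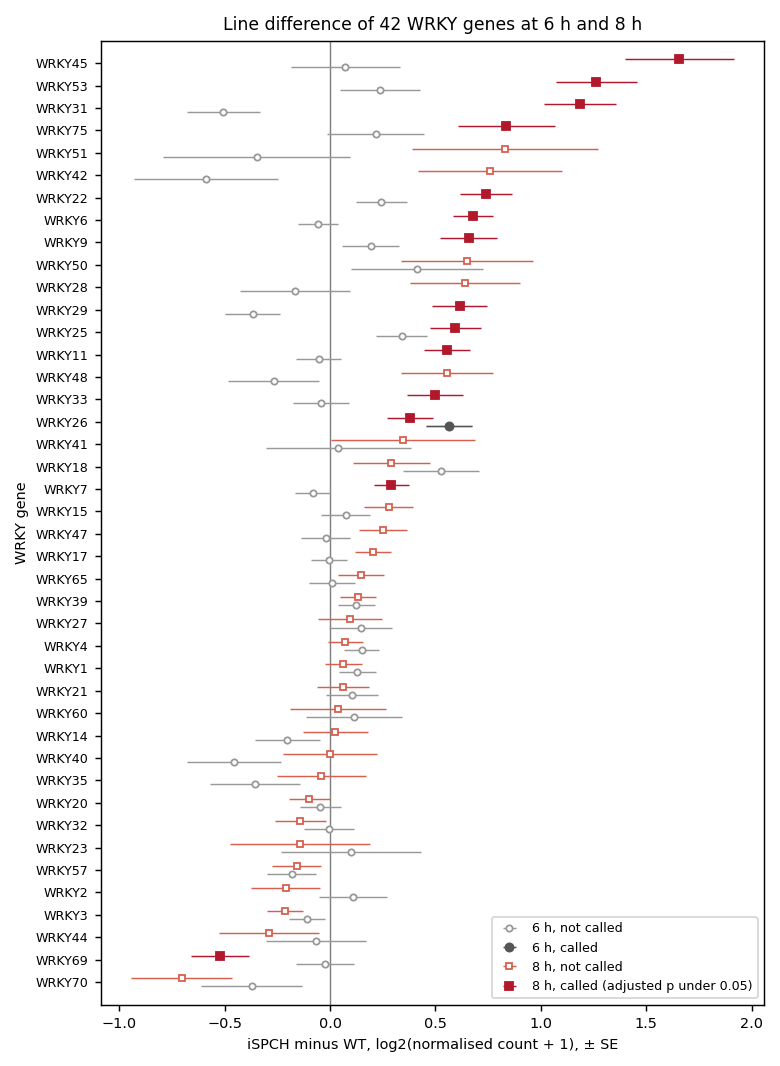
Difference between iSPCH and WT (log2(normalised count + 1), horizontal axis, bars ± SE) of the 42 tested WRKY genes (vertical axis, ordered by the 8 h value) at 6 h (circles) and 8 h (squares), with filled symbols for called differences. At 8 h 13 genes lie to the right of 0 and WRKY69 to the left among the filled symbols; at 6 h only WRKY26 is filled.

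The promoters of these genes were read for the element that WRKY proteins themselves bind. In the 300 bases before the annotated gene start (TAIR10.1, RefSeq annotation), a W box written as TTGACC or TTGACT, searched on both strands, was present in 32.0% of 18983 tested protein-coding genes and in 18 of the 42 tested members. It was present in 9 of the 13 members higher at 8 h, in 9 of the 28 members not called and not in WRKY69. At least 2 W boxes stood in 7.53% of all these promoters and in 8 of the 42, 4 of them among the 13. The presence of these letters is a description of the windows and shows no binding. WRKY33 is the tested member with 3 W boxes, and WRKY29, WRKY45 and WRKY53 have 2 each. They are shown because they hold the most W boxes among the members that were higher at 8 h, together with WRKY15, which also has 2 and was not called. Each sequence runs 5′ to 3′ on the strand of its gene, and capitals mark the W box (AGTCAA and GGTCAA are TTGACT and TTGACC read on the opposite strand). The stretch before WRKY33 (plus strand, chr2:16107935-16108234) is the whole window; the others are stretches of 60 bases, for WRKY29 (plus strand, chr4:12291572-12291631), WRKY45 (minus strand, chr3:327569-327628), WRKY53 (minus strand, chr4:12394169-12394228) and WRKY15 (plus strand, chr2:9924744-9924803).
WRKY33: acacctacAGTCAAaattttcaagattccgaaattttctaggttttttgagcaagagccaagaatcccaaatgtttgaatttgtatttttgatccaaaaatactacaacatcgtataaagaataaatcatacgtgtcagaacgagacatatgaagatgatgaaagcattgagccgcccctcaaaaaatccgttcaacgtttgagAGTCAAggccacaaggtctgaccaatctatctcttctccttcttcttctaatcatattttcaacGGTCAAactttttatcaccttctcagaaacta
WRKY29: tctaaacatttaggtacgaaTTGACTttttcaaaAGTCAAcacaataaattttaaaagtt
WRKY45: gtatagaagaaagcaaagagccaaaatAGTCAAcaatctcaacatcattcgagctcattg
WRKY53: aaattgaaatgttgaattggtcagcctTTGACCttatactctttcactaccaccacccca
WRKY15: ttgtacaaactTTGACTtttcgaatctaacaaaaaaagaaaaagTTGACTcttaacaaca
In the stretch of WRKY29 a W box on each strand stands within the last 40 bases before the gene start, at -40 and -26 (position of the first base, with -1 the base before the start). The 3 W boxes of WRKY33 begin at -292, -96 and -32. The stretches of WRKY45 and WRKY53 show 1 of the 2 W boxes of each, at -189 and -219. WRKY6, WRKY7, WRKY22 and WRKY31 were higher at 8 h without this element in the window. The sequence CGCGTT, a rapid stress response element, was found in 3.13% of all promoters and in 2 of the 42 members, and the G box CACGTG, an element bound by bHLH and bZIP factors, in 7.85% and in 5 of the 42.

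Group IIb held 3 of the 13 higher genes among 5 tested members, and all 5 had a positive difference at 8 h (median 0.68). WRKY31 (AT4G22070, chr4:11691172-11694590, TAIR10.1) is a close relative of WRKY6 and WRKY42 in this group. It read 103 in WT and 82.0 and 113 in iSPCH at 0 h, 135 and 128 in WT and 96.1 and 88.2 in iSPCH at 6 h, and 95.1 and 120.1 in WT and 238 and 251 in iSPCH at 8 h. The iSPCH libraries thus lay below the WT libraries at 6 h and above them at 8 h, with no overlap at either time. The difference was -0.51 ± 0.17 at 6 h (limma, adjusted p = 0.122). By 8 h it was 1.19 ± 0.17, 2.28-fold higher (adjusted p = 0.000369). The change of the line difference from 6 h to 8 h was 1.69 ± 0.24 (adjusted p = 0.00277), the largest of all members.

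WRKY6 (AT1G62300), a regulator of senescence genes and a repressor of the phosphate exporter gene PHO1, read 508 in WT and 459.8 and 515 in iSPCH at 0 h, 477 and 469 in WT and 471 and 438 in iSPCH at 6 h, and 441 and 406 in WT and 715 and 643 in iSPCH at 8 h. The 2 iSPCH libraries at 8 h stood above all 9 others. The difference was -0.06 ± 0.10 at 6 h and 0.68 ± 0.10 at 8 h (adjusted p = 0.000297, limma), 1.60-fold higher, and it changed between these times by 0.74 ± 0.14 (adjusted p = 0.0130). WRKY9 (AT1G68150) read 244 and 222 in WT and 372 and 363 in iSPCH at 8 h, against 157 to 173 in the untreated libraries and 214 to 301 at 6 h, and was higher in iSPCH at 8 h by 0.66 ± 0.14, adjusted p = 0.00521. WRKY42, which acts on PHO1 like WRKY6, read 34.0 and 35.1 in WT and 59.5 and 58.8 in iSPCH at 8 h, without overlap, and the difference of 0.76 ± 0.34 did not pass the test (adjusted p = 0.201). WRKY47 had 0.25 ± 0.11 (adjusted p = 0.198).

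Group IIc held the largest difference and a further called member among its 8 tested genes. WRKY45 (AT3G01970, chr3:325952-327412), known to act in phosphate starvation by inducing the phosphate transporter PHT1;1, and in leaf senescence, read 24.6 in WT and 13.4 and 19.4 in iSPCH at 0 h, 68.2 and 94.6 in WT and 94.5 and 75.6 in iSPCH at 6 h, and 66.3 and 79.3 in WT and 289 and 185 in iSPCH at 8 h. Both lines had risen by 6 h, where they overlapped, and at 8 h the iSPCH libraries stood apart although they differed between themselves. The difference was 0.07 ± 0.26, adjusted p = 0.926 at 6 h, and 1.66 ± 0.26, adjusted p = 0.000660 at 8 h, 3.15-fold higher (limma). Its change between the times, 1.58 ± 0.36, had an adjusted p of 0.0525. WRKY75 (AT5G13080), also a regulator of the phosphate starvation response and of senescence, read 81.2 and 90.7 in WT and 159 and 149 in iSPCH at 8 h and 72.4 to 120.4 in the 4 libraries at 6 h, where the lines overlapped. It was higher at 8 h by 0.84 ± 0.23, adjusted p = 0.0300. Of the other tested IIc genes, WRKY28, an activator of the salicylic acid gene ICS1, had 0.64 ± 0.26 (adjusted p = 0.148), WRKY48 0.55 ± 0.22 (0.131), WRKY50 0.65 ± 0.31 (0.232) and WRKY51 0.83 ± 0.44 (0.286), and WRKY23 and WRKY57 had -0.14 and -0.16; none of these passed the test.

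WRKY53 (AT4G23810, chr4:12392370-12393982), a group III factor that promotes leaf senescence, was the second most changed member. It read 115 in WT and 84.9 and 82.6 in iSPCH at 0 h, 68.2 and 69.4 in WT and 82.7 and 79.8 in iSPCH at 6 h, and 45.4 and 64.6 in WT and 147 and 118 in iSPCH at 8 h. The WT libraries at 6 h and 8 h lay below the 1 untreated WT library. The untreated iSPCH libraries, at 84.9 and 82.6, lay nearer to them. Those of iSPCH at 8 h lay above every untreated library, the second by little (118 against 115). The difference at 8 h was 1.26 ± 0.19 (adjusted p = 0.000529, limma), 2.40-fold higher, after 0.24 ± 0.19 at 6 h. The gene overlaps AT4G23800, an HMG box gene on the opposite strand, by 341 bases; that gene read 455 and 445 in WT and 476 and 425 in iSPCH at 8 h, and its groups overlapped. WRKY70, a group III factor that joins salicylic and jasmonic acid signalling, read 123 and 121 in WT and 70.1 and 79.6 in iSPCH at 8 h, the other way from WRKY53, with -0.70 ± 0.24 and an adjusted p of 0.0781 that did not pass. WRKY41 had 0.35 ± 0.34 (adjusted p = 0.617).

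**Figure D2:**
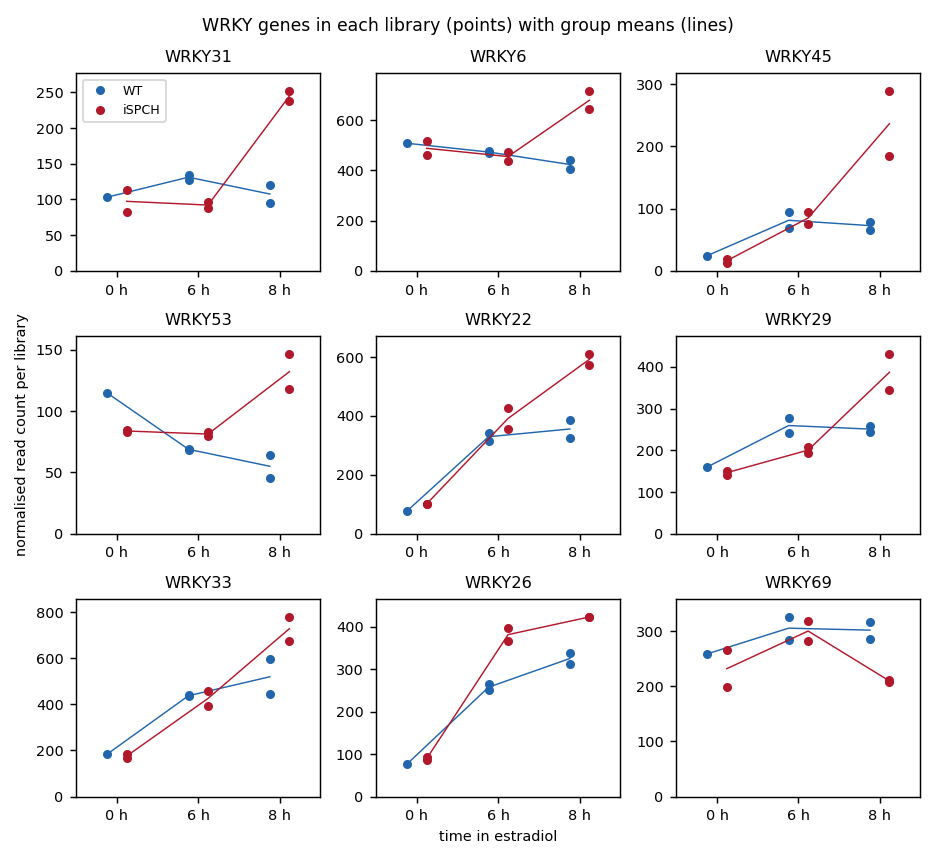
Normalised read count (vertical axis, from 0, own scale in each panel) of 9 WRKY genes in each library (points) with group means (lines) at 0 h, 6 h and 8 h of estradiol, WT in blue and iSPCH in red. WRKY31 and WRKY29 in iSPCH lie below WT at 6 h and above it at 8 h, WRKY26 lies above WT at both times, and WRKY69 in iSPCH lies below WT at 8 h at 208 and 211.

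Group IIe held WRKY22 and WRKY29, known as the pair of WRKY factors placed below the MAP kinase cascade of the flagellin receptor, and both were higher at 8 h. WRKY22 (AT4G01250) read 77.8 in WT and 101 and 102 in iSPCH at 0 h, 343 and 316 in WT and 428 and 356 in iSPCH at 6 h, and 388 and 324 in WT and 611 and 574 in iSPCH at 8 h. It rose in both lines and went higher in iSPCH, where the 8 h libraries cleared those of WT; the difference was 0.74 ± 0.12 (adjusted p = 0.00108, limma), 1.67-fold higher, after 0.24 ± 0.12 at 6 h. WRKY29 (AT4G23550) read 160.2 in WT and 141 and 152 in iSPCH at 0 h, 279 and 240.5 in WT and 208 and 193 in iSPCH at 6 h, and 244 and 258 in WT and 431 and 344 in iSPCH at 8 h. Like WRKY31, its iSPCH libraries lay below WT at 6 h, with a difference of -0.37 ± 0.13, adjusted p = 0.143, and above it at 8 h, with 0.62 ± 0.13, adjusted p = 0.00629. The change of the line difference was 0.98 ± 0.18 (adjusted p = 0.0149). The gene overlaps the glycosyl hydrolase gene AT4G23560 on the opposite strand by 251 bases, which read 69.8 and 198 in WT and 168 and 181 in iSPCH at 8 h.

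WRKY69 (AT3G58710), of the same group, was the 1 member that was lower in iSPCH. It read 259 in WT and 198 and 265 in iSPCH at 0 h, 326 and 285 in WT and 318 and 283 in iSPCH at 6 h, and 286 and 317 in WT and 208 and 211 in iSPCH at 8 h. The lines overlapped at 6 h and did not at 8 h, where the difference was -0.52 ± 0.14 (adjusted p = 0.0233, limma). It overlaps the RING gene AT3G58720 on the opposite strand by 373 bases, which read 117 and 126 in WT and 96.6 and 112 in iSPCH at 8 h. It also shares 345 bases with the long non-coding RNA gene AT3G09145 on the opposite strand. That gene is not analysed here, and without strand its reads and those of WRKY69 cannot be told apart. With library size alone as the scaling the WRKY69 difference was -0.40 (adjusted p = 0.0653), so its call depended on the scaling. The other IIe genes, WRKY14, WRKY27, WRKY35 and WRKY65, had differences from -0.04 to 0.15 at 8 h and none passed.

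In group I, 3 of 10 tested members were called at 8 h: WRKY25, WRKY26 and WRKY33, known together for heat tolerance, with WRKY33 also the substrate of MAP kinases that switches on camalexin synthesis against Botrytis. WRKY26 (AT5G07100) was the member that differed at 6 h. It read 77.0 in WT and 86.8 and 92.4 in iSPCH at 0 h, 264 and 251 in WT and 366 and 396 in iSPCH at 6 h, and 339 and 312 in WT and 423 and 423 in iSPCH at 8 h. The iSPCH libraries exceeded those of WT at both times of estradiol, at 6 h by 0.56 ± 0.11, adjusted p = 0.00877, and at 8 h by 0.38 ± 0.11, adjusted p = 0.0389. Without either WT library at 6 h, or without the shallower iSPCH library, the 6 h difference stayed between 0.51 and 0.60 and its adjusted p was 0.0673 to 0.0979. WRKY25 (AT2G30250) read 389.5 and 397 in WT and 461 and 539 in iSPCH at 6 h and 455 and 373 in WT and 623 and 621 in iSPCH at 8 h, without overlap at either time, and differed by 0.34 ± 0.12, adjusted p = 0.141 at the first time and 0.59 ± 0.12, adjusted p = 0.00470 at the second. WRKY33 (AT2G38470) read 597 and 443 in WT and 780.4 and 677 in iSPCH at 8 h, after 393 to 459 in the 4 libraries at 6 h, and differed by 0.50 ± 0.13 (adjusted p = 0.0282). The gap between the WT libraries at 8 h, 443 against 597, is wider than that between the iSPCH libraries; without the lower of them the WRKY33 difference was 0.28 (adjusted p = 0.293). The gene shares 26 bases with AT2G38480 and 272 bases with the long non-coding RNA gene AT2G08965, both on the opposite strand. AT2G08965 is not analysed here, and without strand its reads and those of WRKY33 cannot be told apart. The other 7 members of group I (WRKY1, WRKY2, WRKY3, WRKY4, WRKY20, WRKY32 and WRKY44) had differences from -0.29 to 0.07, and none passed.

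In group IId, whose members bind calmodulin, WRKY11 (AT4G31550), a negative regulator of basal resistance, read 506 and 539 in WT and 839.9 and 704 in iSPCH at 8 h and 473 to 562 in the 7 earlier libraries. It was higher at 8 h by 0.56 ± 0.11, adjusted p = 0.00360. WRKY7 (AT4G24240) read 588 and 554 in WT and 723 and 675 in iSPCH and was higher by 0.29 ± 0.08, adjusted p = 0.0347, the smallest called difference. All 6 members of IId had a positive difference at 8 h, from 0.06 to 0.56; WRKY15, WRKY17, WRKY21 and WRKY39 did not pass. No member of group IIa was called at 8 h. This group holds WRKY18, WRKY40 and WRKY60, which act together as repressors of basal defence, and their differences were 0.29 ± 0.18, 0.00 ± 0.22 and 0.04 ± 0.23. WRKY40 has a stretch of 465 bases in AT3G32090 that is 96.3% alike, so its reads could have been split between them.

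Among the 9 members too low to be tested, WRKY30 of group III read 0 and 1.13 in WT and 13.8 and 9.23 in iSPCH at 8 h, from 0 and 1 reads in WT and 13 and 8 reads in iSPCH. With no filter on low counts, WRKY30 was the 1 of these 9 that was called at 8 h (adjusted p = 0.0116, limma). WRKY8 read 6.98 and 2.27 in WT and 14.9 and 15.0 in iSPCH at 8 h, and WRKY38 8.73 and 9.07 in WT and 2.12 and 2.31 in iSPCH, the other way. WRKY54, the partner of WRKY70, read 13.1 and 14.7 in WT and 8.49 and 3.46 in iSPCH. These values rest on few reads, and the adjusted p-values of WRKY8, WRKY38 and WRKY54 were 0.209, 0.0761 and 0.234.

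Before induction no member was called between the lines. At 0 h 0 of 42 were called in either direction, beside 0.0458% of all genes higher and 0.0458% lower; limma gave 2 members an unadjusted p under 0.05, edgeR called 0 of 42, and DESeq2 called 0 of the 5 members to which it gave an adjusted p. The spread of WT at 0 h, with 1 library, was taken from the other 5 groups.

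By 6 h of estradiol 22 of 42 members were called against 0 h in WT (52.4%, beside 57.2% of all genes) and 27 of 42 in iSPCH (64.3%, beside 65.1%). These shares are near those of the whole table. In WT, 18 of 42 members were higher at 6 h than at 0 h and 4 were lower, beside 29.3% and 27.9% of all genes, and the median change of the members was 0.28 beside 0.00. The 10 that rose most were WRKY22, WRKY40, WRKY28, WRKY26, WRKY70, WRKY45, WRKY25, WRKY15, WRKY33 and WRKY75, with changes from 2.07 to 1.19. The rise of WRKY28 rests on the 1 WT library at 0 h, at 12.3 from 16 reads. Untreated iSPCH libraries read 25.8 and 29.2 for this gene. At 6 h it read 39.8 and 51.3 in WT and 33.9 and 47.6 in iSPCH, and its rise in iSPCH was not called. WRKY40, one of the earliest genes to answer wounding and elicitors, went from 26.2 to 112 and 111 in WT and from 21.0 and 30.1 to 89.8 and 72.8 in iSPCH. WRKY70 went from 31.6 to 106 and 107 in WT and from 15.3 and 28.2 to 89.0 and 75.6 in iSPCH. The members that fell in WT were WRKY60 (-1.17 ± 0.28, adjusted p = 0.00224), WRKY53 (-0.73 ± 0.23, 0.0153), WRKY57 (-0.38 ± 0.14, 0.0333) and WRKY7 (-0.26 ± 0.10, 0.0387). Of these falls that of WRKY60 was called in all 19 alternatives that tested it. The call of WRKY7 was lost in 6 of 20 alternatives and that of WRKY57 in 5 of 20. Both were lost with library size alone (WRKY7 -0.17, adjusted p = 0.178), TMM, DESeq2 or without either WT library at 6 h. The call of WRKY53 was lost without the deeper WT library at 6 h (adjusted p = 0.0506). No alternative could leave out the 1 WT library at 0 h, on which every one of these WT changes rests. WRKY60 and WRKY40 of group IIa changed in opposite directions in WT, and in iSPCH as well: WRKY60 went from 125 and 90.4 to 55.2 and 54.6 there.

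In iSPCH, 22 members were higher at 6 h than at 0 h and 5 were lower, beside 33.2% and 31.9% over the whole table. The 10 largest rises were those of WRKY45, WRKY26, WRKY22, WRKY70, WRKY51, WRKY40, WRKY25, WRKY33, WRKY15 and WRKY4, from 2.32 to 1.25. The falls were those of WRKY42 (-1.21), WRKY60 (-0.94), WRKY35 (-0.62), WRKY57 (-0.55) and WRKY20 (-0.23). WRKY42 at 6 h differed between the iSPCH libraries, at 39.4 and 15.4, and without the second of them its change was -0.56 (adjusted p = 0.105). The fall of WRKY20 was lost in 13 of 21 alternatives, among them library size alone (-0.11, adjusted p = 0.337), TMM, edgeR and DESeq2, and that of WRKY35 in 4 of 20 (-0.38, adjusted p = 0.212, without the shallower iSPCH library at 0 h). WRKY57 and WRKY60 were called in every alternative that tested them. The change from 0 h to 6 h was not called as different between the lines for any of the 42 members, a test that called 0.234% of all genes as changed upward and 0.483% as changed downward in iSPCH relative to WT. In that test 2 members had an unadjusted p under 0.05 with limma, edgeR called 0 of 42, and DESeq2 called 0 of the 24 members with an adjusted p.

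**Figure D3:**
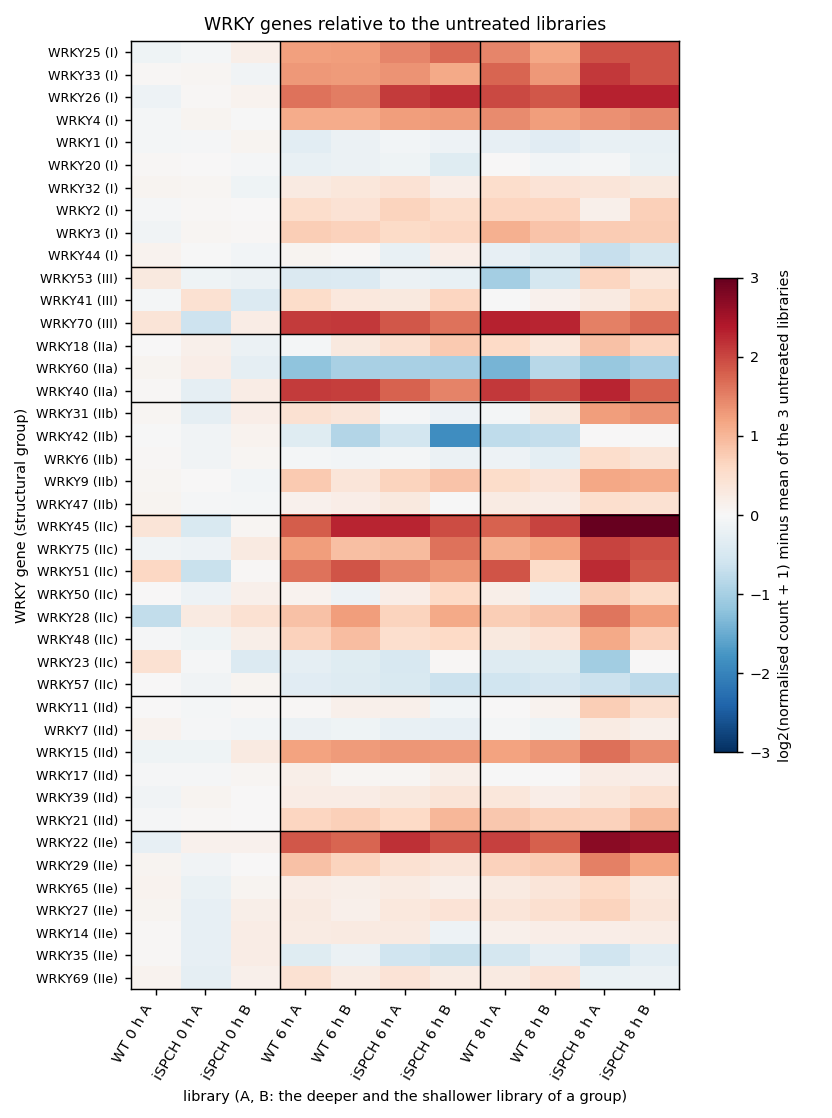
Heat map of the 42 tested WRKY genes (rows, by structural group) in the 11 libraries (columns), as log2(normalised count + 1) minus the mean of the 3 untreated libraries; red is higher and blue lower. WRKY22, WRKY26, WRKY40, WRKY45 and WRKY70 are red in every library with estradiol, WRKY60 is blue in all of them, and WRKY6, WRKY11 and WRKY31 are reddest in the 2 iSPCH columns at 8 h.

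Between 6 h and 8 h members were called in iSPCH and not in WT. In WT 0 of 42 were called, beside 0.208% of all genes higher and 0.203% lower, 3 members had an unadjusted p under 0.05 with limma, edgeR called 0 of 42 and DESeq2 0 of the 16 with an adjusted p. In iSPCH, 10 members rose and 1 fell, beside 3.98% and 3.58% of all genes. WRKY45 (1.44 ± 0.26, adjusted p = 0.00285), WRKY31 (1.40 ± 0.17, 0.000174), WRKY42 (1.22 ± 0.34, 0.0448) and WRKY29 (0.94 ± 0.13, 0.000450) rose most, followed by WRKY33, WRKY53, WRKY22, WRKY6, WRKY11 and WRKY7, and WRKY69 fell (-0.51 ± 0.14, 0.0328). Without the shallower iSPCH library at 6 h the rise of WRKY42 was 0.57 (adjusted p = 0.276), and without the deeper iSPCH library at 8 h 4 members were called. The call of WRKY42 was lost in 13 of 20 alternatives, edgeR and DESeq2 among them, and that of WRKY53 in 11 of 20, DESeq2 among them. Of the 11 calls, 4 (WRKY6, WRKY29, WRKY31 and WRKY33) were made in every alternative. The test of the difference itself, the line difference at 8 h minus that at 6 h (which is also the change in iSPCH minus that in WT), called WRKY31, WRKY29 and WRKY6 as higher and none as lower, beside 0.89% and 0.229% of all genes, and the median of the 42 members was 0.23 beside -0.03 for all genes. A further 11 members had an unadjusted p under 0.05 in that test without being called. Leaving out 1 library at a time gave 1 to 6 calls: 1 without the deeper WT library at 6 h or the deeper iSPCH library at 8 h, 5 without the shallower iSPCH library at 8 h and 6 without the deeper iSPCH library at 6 h; WRKY31 was called each time.

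The time course in WT and the line difference at 8 h share no library. Both take the spread of a gene from the same fit, so their calls are not independent of each other. Of the 13 members higher in iSPCH at 8 h, 8 had also risen in WT by 6 h. This is 61.5% of the 13 and 44.4% of the 18 that rose among 42 tested. These 8 were WRKY9, WRKY22, WRKY25, WRKY26, WRKY29, WRKY33, WRKY45 and WRKY75. The rise of WRKY9 in WT was 0.31 to 0.72 over the alternatives. It was lowest, and no longer called, without the deeper WT library at 6 h, where the WT libraries read 286 and 214. Over all genes, 34.3% of those higher in iSPCH at 8 h had risen in WT by 6 h, or 5.58% of those that rose. WRKY53 and WRKY7 were called as lower in WT by 6 h, with the losses given above, and WRKY6, WRKY11 and WRKY31 were not called there. Conversely WRKY40, WRKY28, WRKY70 and WRKY15, among the members that rose most in WT, were not called between the lines at 8 h, with differences of 0.00, 0.64, -0.70 and 0.28. The limit of the WRKY28 rise is given above.

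**Figure D4:**
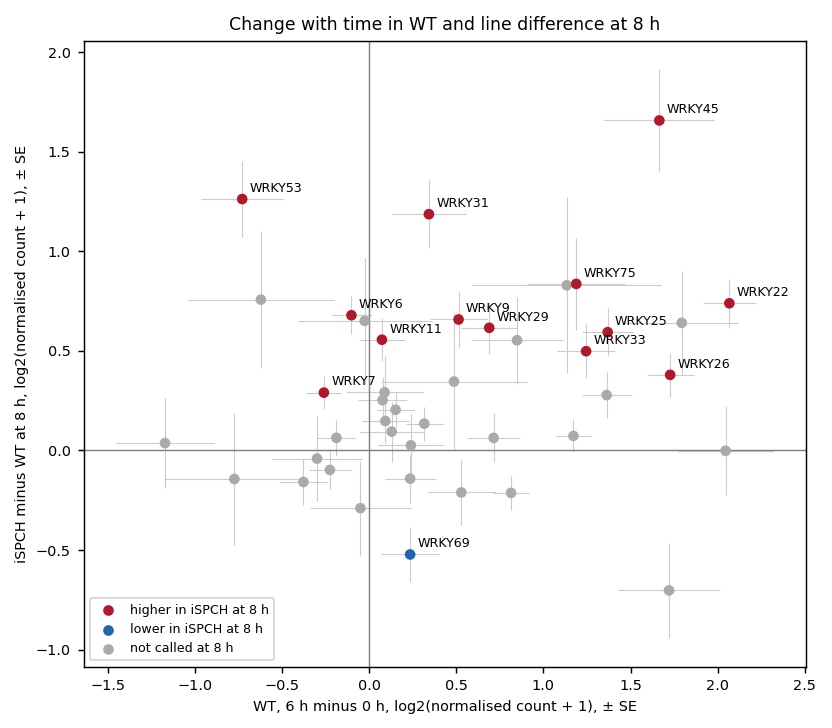
Change of the 42 tested WRKY genes in WT from 0 h to 6 h (horizontal axis) against the difference between iSPCH and WT at 8 h (vertical axis), both on the log2(normalised count + 1) scale with bars ± SE; members called at 8 h are named. Of the 13 genes in red, WRKY22, WRKY45 and WRKY26 lie far to the right and WRKY53, WRKY7 and WRKY6 to the left of 0. WRKY40, WRKY70 and other genes that rose in WT are grey.

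Other genes of the same pathways were taken from lists written with earlier results of these data known. Of 20 rapid wound, touch and elicitor genes, 19 were tested; 8 were higher in iSPCH at 8 h and none lower (median 0.27), beside 4.75% and 5.98% of all genes, while limma called 0 at 6 h (4 had an unadjusted p under 0.05; edgeR called 0 and DESeq2 1). CYP81F2, an enzyme of indole glucosinolate metabolism needed for defence, read 87.3 and 96.3 in WT and 699.7 and 463 in iSPCH at 8 h, and 66.3 and 92.6 in WT and 136 and 122 in iSPCH at 6 h. Its libraries did not overlap at either time, and the difference at 8 h was 2.62 ± 0.22, adjusted p = 2.98e-06. FRK1, the flagellin-induced receptor kinase gene known as a target of WRKY22 and WRKY29, read 21.8 and 26.1 in WT and 107 and 81.9 in iSPCH at 8 h and 31.3 and 38.2 in WT at 6 h. FRK1 differed by 1.93 ± 0.32, adjusted p = 0.00114. The ubiquitin ligase gene ATL31 (0.96 ± 0.14, adjusted p = 0.000305) and the zinc finger gene ZAT12 (0.88 ± 0.19, adjusted p = 0.00672) were higher as well; the touch genes TCH2, TCH3 and TCH4 had differences from -0.30 to 0.04 and did not pass. In WT, 15 of the 19 rose by 6 h and 2 fell, beside 29.3% and 27.9% of all genes. For all 8 called genes the deeper iSPCH library at 8 h lay above the other. This order was not counted over all genes, so it cannot be read as particular to these genes. Fewer of the 19 were called without that library or without either WT library at 8 h. The part of the deeper iSPCH library in the result was not tested.

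Of 17 VQ genes, whose products bind WRKY proteins, 13 were tested and limma called 3 higher at 8 h, beside 4.75% of all genes. VQ8 read 8.73 and 21.5 in WT and 60.5 and 45.0 in iSPCH (1.85 ± 0.40, adjusted p = 0.00708). It reached the CPM needed for testing in iSPCH libraries alone, so it entered the test through the line where it was high. SIB2, a partner of WRKY33, read 77.7 and 95.2 in WT and 141 and 136 in iSPCH (0.68 ± 0.16, adjusted p = 0.0139). VQ12 read 57.6 and 38.5 in WT and 162 and 96.9 in iSPCH (1.39 ± 0.40, adjusted p = 0.0428). None of the 13 was lower, their median was 0.07, and without either the deeper WT or the deeper iSPCH library at 8 h none was called. Of the defence MAP kinase cascade, 13 of 14 genes were tested and limma called 0 at 8 h (1 had an unadjusted p under 0.05, edgeR called 1 and DESeq2 0; median 0.02); MPK4 came nearest (0.25 ± 0.08, adjusted p = 0.0546). MPK3 and MPK6, the kinases placed above WRKY22, WRKY29 and WRKY33, had 0.02 ± 0.09 and -0.10 ± 0.07. RNA levels say nothing of the kinases' activity.

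**Figure D5:**
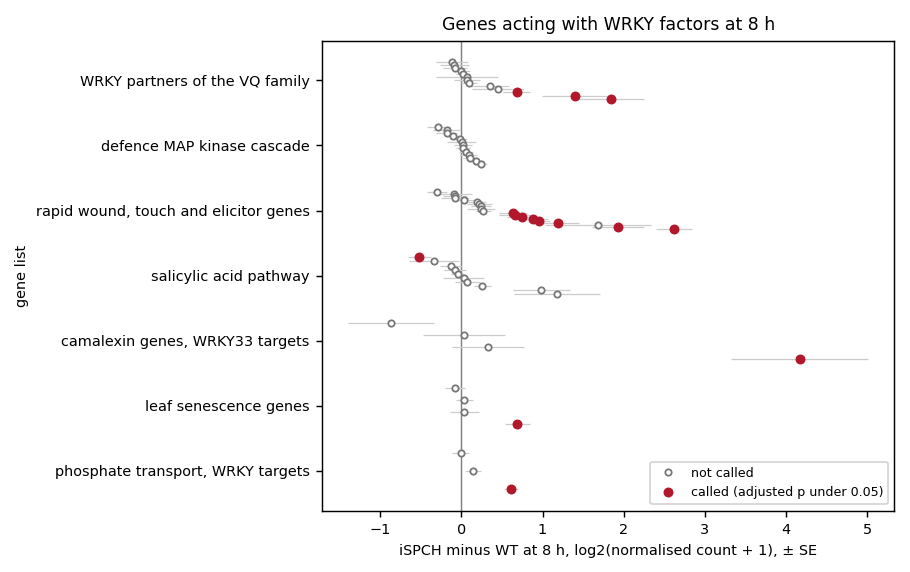
Difference between iSPCH and WT at 8 h (log2(normalised count + 1), horizontal axis, bars ± SE) of the tested genes of 7 lists (rows), each point 1 gene and filled where called. The rapid wound, touch and elicitor genes have 8 filled points, all to the right of 0; the MAP kinase cascade has none and lies close to 0.

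The other lists had few calls at 8 h, to be read beside the 4.75% higher and 5.98% lower of all genes. Of 10 tested genes of the salicylic acid pathway 1 was lower and none higher (median -0.01): EDS5, the salicylic acid exporter, with -0.52 ± 0.14, adjusted p = 0.0300. The call of EDS5 was lost whichever of the 4 libraries at 8 h was left out (adjusted p from 0.0932 to 0.141), and with edgeR, DESeq2, library size alone or only the groups compared. In single alternatives 1 gene of this list was higher: EDS1 with library size alone, and GRXC9 with edgeR or without the shallower iSPCH library at 8 h. ICS1, which makes salicylic acid, had -0.13 ± 0.13, and the marker genes PR1, PR2 and PR5 were too low to be tested. Of 4 camalexin genes listed as WRKY33 targets, CYP71A12 was called; it read 3.49 and 4.53 in WT and 240.0 and 32.3 in iSPCH at 8 h, and its difference of 4.17 ± 0.85, adjusted p = 0.00461 rests on libraries that lie far apart. CYP71A12 reached the CPM needed for testing in the iSPCH libraries at 8 h alone, so it entered the test through the group where it was high. Without either of these libraries CYP71A12 was too low to be tested, and edgeR did not call it (adjusted p = 0.113). PAD3, which makes camalexin, had 0.33 ± 0.44, and CYP71A13, a close copy of CYP71A12 with which reads could be shared, had -0.86 ± 0.53; the median of the 4 was 0.18. Of 4 tested senescence genes, NAC092 (ORE1), a driver of leaf senescence, read 154 and 170.0 in WT and 259 and 264 in iSPCH at 8 h (0.69 ± 0.15, adjusted p = 0.00744), and it was also called at 6 h (0.66 ± 0.15, adjusted p = 0.0204); the median of the 4 was 0.04. Of 3 phosphate transport genes regulated by WRKY factors, PHT1;4 read 356 and 386 in WT and 577 and 557 in iSPCH (0.61 ± 0.09, adjusted p = 0.000413), while PHO1 had -0.01 ± 0.11 and PHT1;1 0.14 ± 0.10; their median was 0.14.

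Some markers of other cell types differed between the lines. Library values were recovered for 10 markers. Of these, ATML1, SHR, CASP1, COBL9 and EXP7 were called lower in iSPCH at 8 h, 5 of 10 beside 5.98% of all genes. In these 5 and KAT1, 6 of 10, both iSPCH libraries lay below both WT libraries at 8 h. The share of all genes with such a separation was not counted. The other 4 (PDF1, FAMA, SCR and APL) overlapped. The root hair gene COBL9 read 64.6 and 75.9 in WT and 2.12 and 5.77 in iSPCH, and the root hair gene EXP7 85.5 and 83.9 in WT and 5.31 and 6.92 in iSPCH. The endodermis gene CASP1 read 635 and 593 in WT and 434 and 340.3 in iSPCH. At 6 h COBL9 already read 74.9 and 76.5 in WT and 30.7 and 18.2 in iSPCH, and EXP7 118 and 119.7 in WT and 79.6 and 32.2 in iSPCH, both called lower (adjusted p = 0.0113 and 0.0484). The epidermis gene ATML1 read 2413 and 2327 in WT and 1846 and 1892 in iSPCH at 8 h and was also called lower at 6 h. The root gene SHR read 314 and 305 in WT and 231 and 233 in iSPCH at 8 h. The authors' group means of the leaf genes CA1 and RBCS1A, for which no library values were recovered, were 25059.9 and 195434 in WT and 15630.3 and 147336 in iSPCH at 8 h. The guard cell markers KAT1 and FAMA read 145 to 147 and 488 to 505 in WT and 122 to 129 and 492 to 509 in iSPCH at 8 h. The part of such shifts in the WRKY values was not tested.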

How the data were processed

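Poly-A RNA libraries of whole seedlings were sequenced by the authors; CASAVA 1.8, TopHat and DESeq and the build TAIR10 are named in the submitters' processing notes, and a strand setting is not given in the sources used here. As deposited, each row holds group means of a normalised read count (unit: signal) for 1 of 33602 genes, made by the authors. Because a mean of 2 libraries is a sum of whole multiples of 2 steps, whole reads per library were recovered for 33492 genes. The other 110 abundant genes, with 31.2% of reads, were left out of the tests, and none of them is a member. Their reads, split between the libraries of a group as evenly as the mean allowed, still entered the library totals. These totals were used for the CPM filter, library size scaling, TMM and edgeR. Which recovered library is which labelled replicate is unknown, so they are named by depth. How often the deeper iSPCH library at 8 h lay above the other was counted for members and list genes, and not for all genes. limma 3.58.1 (trend, robust) in R 4.3.3 was fitted on log2(normalised count + 1) over 11 libraries and 6 groups, for the 19668 genes that reached a CPM of 1 in 2 or more libraries, with 9 comparisons and an FDR of 0.05. Members called in a line difference were named from the largest change down, in changes with time up to 10 each way, and from each list up to 4 with the smallest p at 8 h; further list genes named were chosen after their values were seen. Members and lists were chosen with earlier results of these data known. Alternatives were added counts of 0.1 and 5, library size alone, TMM, no filter, a mean CPM of at least 5, edgeR 4.0.16, DESeq2 1.42.0 (both on the recovered counts), a fit without robust variance, only the groups compared, and each library left out. The recovery and the fit were tested on simulated data. Overlaps, copies (BLAST 2.17.0, at least 95% over 100 bases) and promoters came from TAIR10.1. 10 members overlap another gene; their reads cannot be told apart without strand.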

Additional observations from a re-analysis of the deposited data

Results flagged for a closer look

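The line difference of 3 members changed between 6 h and 8 h by the test of that change itself (limma, adjusted over 19668 genes): WRKY31 by 1.69 (adjusted p = 0.00277), WRKY29 by 0.98 (adjusted p = 0.0149) and WRKY6 by 0.736 (adjusted p = 0.0130). In each, the 2 iSPCH libraries at 8 h exceeded both WT libraries. At 6 h both iSPCH libraries of WRKY31 and WRKY29 lay below both WT libraries. WRKY31 was called whichever library was left out. The call of WRKY29 was lost without the deeper WT library at 6 h or 8 h or the deeper iSPCH library at 8 h, with adjusted p up to 0.104, and that of WRKY6 without either WT library at 6 h, the shallower WT library or the deeper iSPCH library at 8 h, with adjusted p up to 0.0749.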

How the results depend on the processing

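No called member changed direction in any alternative. For the change from 0 h in WT, no alternative could leave out the 1 WT library at 0 h. Of the 14 members called between the lines at 8 h, 5 (WRKY6, WRKY22, WRKY31, WRKY45 and WRKY53) were called in every alternative that tested them and 9 were lost in at least 1; called in every alternative were also 15 of 22 in WT and 17 of 27 in iSPCH from 0 h to 6 h, 4 of 11 in iSPCH from 6 h to 8 h and 1 of 3 for the change of the line difference. Leaving out 1 library at a time, the count called ranged from 0 to 2 at 6 h, 7 to 15 at 8 h, 16 to 23 for WT at 6 h against 0 h, 21 to 28 for iSPCH at 6 h against 0 h, 4 to 11 for iSPCH at 8 h against 6 h, and 1 to 6 for the change of the line difference. With library size alone, 2 members were called at 6 h, and 16 higher and 0 lower at 8 h; this scaling put the median of all genes at 0.11 and 0.09, beside 0.00 and -0.03. With a mean CPM of at least 5, 14 were called in WT from 0 h to 6 h, with 27 members tested. At 8 h edgeR called 13 higher and 2 lower, and DESeq2 11 higher and none lower. The share of all genes called in each alternative is not given here. A fit without 1 library has fewer libraries for every gene, so a lower count there is not a result about the members alone. No paired analysis was possible because the recovered libraries carry no replicate number. Of the list genes called at 8 h, CYP71A12 ranged from 3.41 to 5.10 in the 18 alternatives that tested it and was lost in 2. No alternative that left out an iSPCH library at 8 h tested it. The call of ZAT6 was lost in 10 alternatives, EDS5 in 8, VQ12 in 7, and SIB2 and MYB51 in 4 each. Those of NAC092, ERF5, VQ8, ZAT10 and ZAT12 were lost in 2 each. CYP81F2, FRK1 and ATL31 were called in every alternative that tested them. With a mean CPM of at least 5, 4 of 14 rapid wound, touch and elicitor genes and 0 of 6 VQ genes were called. The 9 members with at most 18 reads were too low to be tested at this depth.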
